A study of Homo sapiens with 9 samples.

Results

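A set of 10 genes that control or serve the display of antigen by the major histocompatibility complex (MHC), and that lie outside the MHC region of chromosome 6, was followed in lymphoma cells depleted of LSD1. They were chosen by name for their known role, with earlier results of these data known. The transcription regulators of MHC class II are CIITA, RFX5, RFXAP and RFXANK, and CD74 is the class II invariant chain. NLRC5 is the class I transactivator, B2M the class I light chain, ERAP1 and ERAP2 the peptide-trimming enzymes, and CALR a chaperone of class I assembly. The 10 genes are 10 of 26816 in the count table, and all 10 were among the 15725 that passed the filter on low counts.

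The RNA came from OCI-Ly1, a human diffuse large B-cell lymphoma line of the germinal-centre type, grown in IMDM medium with fetal bovine serum. Cells carried a pLKO1 vector, selected with puromycin, that expressed either a scrambled shRNA (shSCR) or an shRNA against KDM1A, the gene of the histone demethylase LSD1. The 2 LSD1 shRNAs are called sh68 and sh72, as in the column names of the count table, and no label ties these names to the numbered sample titles. Each of the 3 groups had 3 biological replicates of polyadenylated RNA from this 1 cell line, so spread here is spread between cultures of a line, and how the replicates were kept apart is not stated.

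The libraries held 29506767 to 35270849 counted reads, and the lowest Pearson correlation across genes between libraries of a group was 0.995. KDM1A was at 121, 120 and 123 CPM (counts scaled to a common library size) in the shSCR libraries, at 23.4, 24.1 and 25.8 with sh68 and at 19.1, 22.7 and 20.9 with sh72. This left 20.2% of its RNA with sh68 and 17.2% with sh72. All 8 B-cell markers checked (among them MS4A1 and CD79A) were detected. Their summed level was 4757 to 4944 CPM in shSCR, 4813 to 4927 CPM with sh68 and 3133 to 3330 CPM with sh72, so the sh72 libraries lay below the other groups. In bulk RNA, fewer cells of a type and less RNA per cell cannot be told apart. Summed markers of T cells reached at most 1.67 CPM, of monocytes and macrophages 1.41 CPM and of fibroblasts 3.44 CPM in any library. Dendritic-cell markers, of which 3 of 6 were in the table and LAMP3 gave the highest level, summed to 109 to 121 CPM in shSCR, 148 to 171 CPM with sh68 and 52.0 to 55.5 CPM with sh72. These markers did not fall together with sh72. LAMP3 was at 112 CPM in shSCR and 43.3 CPM with sh72, while CD1C was at 3.85 CPM in shSCR and 10.2 CPM with sh72. Epithelial markers, led by EPCAM, summed to 15.2 to 18.1, 7.52 to 8.89 and 15.6 to 16.2 CPM.

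MHC class II molecules present peptides from endocytosed material to CD4 T cells, and B cells express them constitutively. Their promoters carry W/S, X and Y boxes, which are bound by the RFX complex (RFX5, RFXAP and RFXANK), CREB-family factors and NF-Y, and these together recruit CIITA, which does not bind DNA itself. Class I promoters carry a similar set of boxes together with interferon-responsive elements, and NLRC5 acts there in the way that CIITA acts at class II genes. Invariant chain (CD74) escorts class II molecules to endosomes, while class I molecules need B2M, trimmed peptides and chaperones to fold in the endoplasmic reticulum.

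Levels per kilobase of exon in the control cells spread widely over the 10 genes. CALR stood at 309 RPKM (CPM divided by the kilobases of merged exons) and CD74 at 304 RPKM, above 99.7% of the 13163 genes with a known length, and their library ranges overlapped. RFX5 followed at 39.2 RPKM, RFXANK at 24.1 RPKM, ERAP1 at 17.6 RPKM and ERAP2 at 5.70 RPKM, each without overlap with its neighbour in the order. B2M at 3.77 RPKM and RFXAP at 3.57 RPKM overlapped each other, and the transactivators came last, CIITA at 2.40 RPKM and NLRC5 at 1.60 RPKM, at the 35.2 and 29.9 percentile. The 3 subunits of the RFX complex therefore differed in RNA level by more than their replicate spread, with RFX5 the highest and RFXAP the lowest. In the sh68 and sh72 groups the order was the same except that RFXAP stood above B2M. With the length of the longest transcript in place of merged exons, CD74 ranked above CALR and B2M above ERAP2. The place of CIITA depends on its length, 20757 bases of merged exons and 16059 for the longest transcript. In CPM, which is not divided by length, CIITA (49.7 in shSCR) lay below RFXANK (60.2). It lay above ERAP2 (42.3), B2M (22.9), NLRC5 (19.8) and RFXAP (8.22).

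**Figure D1:**
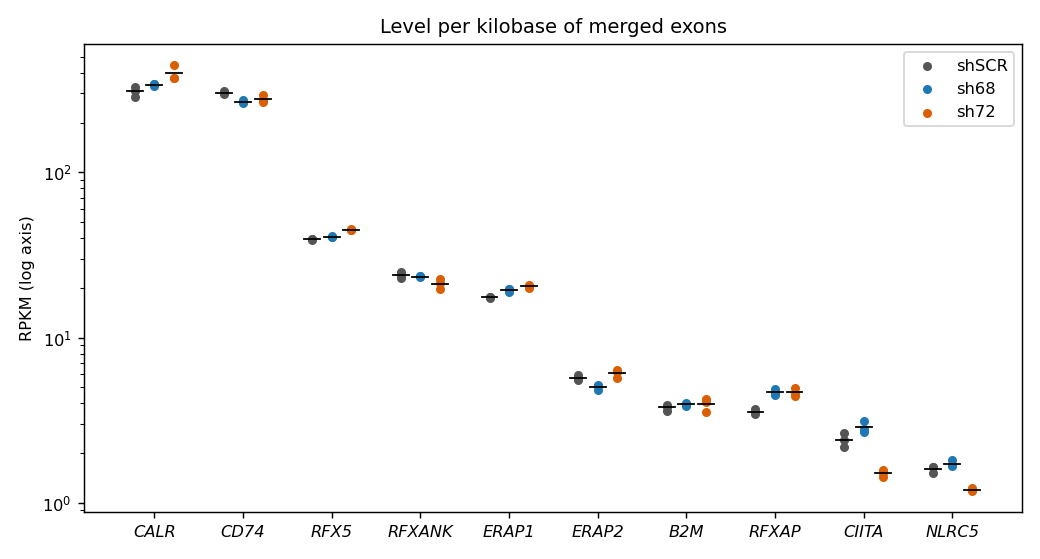
RNA level per kilobase of merged exons (RPKM, log axis) of the 10 genes in each of the 9 libraries; points are libraries, coloured by group, and the horizontal line is the group mean. CALR and CD74 lie near 300 RPKM, and CIITA and NLRC5 lie lowest in all 3 groups.

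With knockdown, 8 of the 10 genes were called changed on the mean, by small amounts and in mixed directions. On the mean of both shRNAs against shSCR, 4 genes rose (RFXAP, CALR, ERAP1 and RFX5), 4 fell (CIITA, CD74, NLRC5 and RFXANK), and B2M and ERAP2 did not pass. The 4 lower calls came down to 1 without shSCR replicate 1 and to 2 without shSCR replicate 2, sh68 replicate 1 or 2, or sh72 replicate 2 or 3. With the 6 LSD1 shRNA libraries as 1 group, 2 genes were called higher and 1 lower. That setting called 3581 genes over the whole table, against 8226 in the main fit. The test was edgeR's quasi-likelihood test with Benjamini-Hochberg adjustment over all 15725 genes, called at an adjusted p below 0.05. Of all tested genes, 24.9% were called higher and 27.5% lower in the same comparison. For 5 of the 10 genes all 6 LSD1 shRNA libraries lay beyond all 3 shSCR libraries, against 29.9% of all genes. The log2 fold changes ran from -0.21 to 0.39 with a median of 0.0071, beside a median of -0.015 over all genes.

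The shRNAs were then taken singly, with the shSCR libraries shared by both comparisons. With sh68, 4 of the 10 rose and 2 fell, where 27.4% of all genes were called higher and 28.1% lower, and the median log2 fold change was 0.088 beside -0.0082 over all genes. With sh72, 4 rose and 4 fell, where 24.7% and 26.3% of all genes were called, and the median was 0.078 beside -0.011. Between the shRNAs themselves, 3 genes were higher and 3 lower in sh72 than in sh68, where 27.2% of all genes were called higher and 29.0% lower. CD74, RFXAP, ERAP1 and CALR were called in the same direction by each shRNA. The share of all genes called so was not counted, so whether this is more than the background is not known. Only CIITA among the 10 was called in opposite directions, as were 7.83% of all genes.

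**Figure D2:**
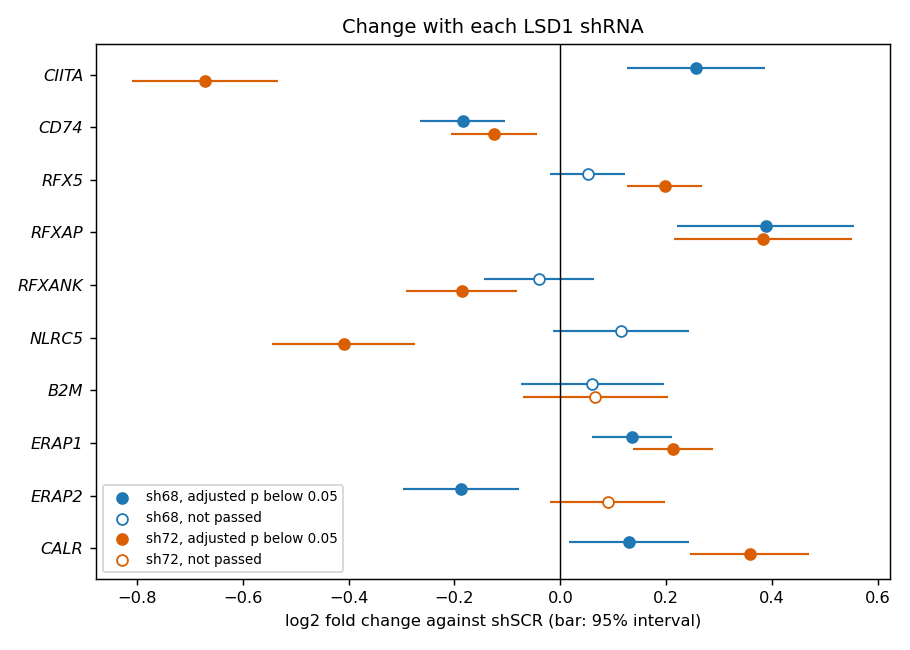
Log2 fold change of each gene against shSCR with sh68 (blue) and sh72 (orange), with bars for the 95% interval and filled points where the adjusted p is below 0.05. CIITA lies to the right of 0 with sh68 and to the left with sh72, while RFXAP lies near 0.38 with each.

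**Figure D3:**
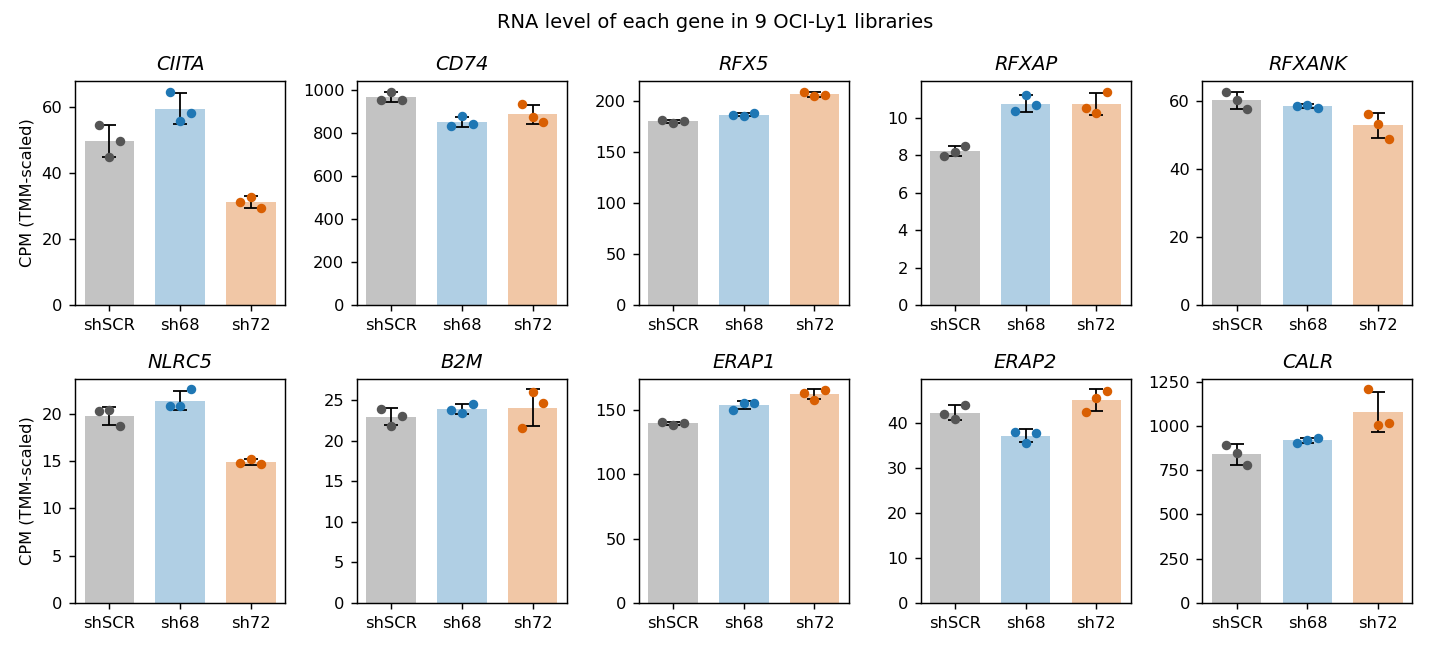
CPM of the 10 genes by group, each panel with its own axis from 0; bars are means of 3 libraries, whiskers the SD and points the libraries. All RFXAP points of the LSD1 shRNA groups lie above its shSCR points, and the CIITA and NLRC5 points of sh72 lie below those of the other groups.

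CIITA, the class II transactivator (chromosome 16, 10866206 to 10943021, GRCh38.p14), was the gene of the 10 that responded most differently to the shRNAs. It was at 54.6, 45.0 and 49.6 CPM in shSCR, at 64.6, 55.6 and 58.2 CPM with sh68 and at 31.4, 32.9 and 29.5 CPM with sh72. Every sh68 library lay above every shSCR library, and every sh72 library below. CIITA rose by 0.26 ± 0.063 (log2, SE) with sh68 (adjusted p = 0.00136) and fell by 0.67 ± 0.067 with sh72 (adjusted p = 1.03e-08), which left 62.8% of the control level. The difference between the shRNAs was -0.93 ± 0.065 (adjusted p = 2.12e-11), larger in size than that of 90.8% of all genes. The mean of both shRNAs, -0.21 ± 0.056 (adjusted p = 0.0031), therefore averaged opposite changes, and it no longer passed without shSCR replicate 1 (-0.12, adjusted p = 0.105) or when the 6 LSD1 shRNA libraries were taken as 1 group (-0.13, adjusted p = 0.756). The sh72 libraries were also those with the lower summed B-cell markers, and the part of that shift in the CIITA result was not tested. Of the merged CIITA exons, 11.6% overlap DEXI on the opposite strand, and DEXI itself changed by 0.012 with sh68 and -0.067 with sh72, neither past the threshold (edgeR adjusted p = 0.919 and 0.572).

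RFX5, the DNA-binding subunit of the RFX complex (chromosome 1, 151340640 to 151347252, minus strand), carries in 1 of its 3 RefSeq promoter windows the letters of an X1-box core and of the Y box. The 250 bases before that start, chr1:151347253-151347502 on the minus strand (RefSeq, GRCh38.p14), are printed. The rule for printing took windows of these genes that hold CCAAT together with AGCAAC or TGACG (X2 core). Capitals mark 2 CCAAT (Y box) matches and 1 AGCAAC (X1 core) match. AGCAAC at -21 lies nearer the start than CCAAT at -177 and -95.
RFX5 promoter: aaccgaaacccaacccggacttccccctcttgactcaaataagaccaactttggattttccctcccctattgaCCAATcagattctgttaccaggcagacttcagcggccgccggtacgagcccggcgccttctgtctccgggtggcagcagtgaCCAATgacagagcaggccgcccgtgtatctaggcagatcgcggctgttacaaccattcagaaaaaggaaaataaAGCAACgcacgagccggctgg

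RFX5 RNA was at 181, 178 and 180.4 CPM in shSCR, at 186, 185 and 188 CPM with sh68 and at 209, 204 and 205 CPM with sh72. The groups did not overlap, since the spread within a group was at most 2.32 CPM (SD). With sh72 RFX5 rose by 0.20 ± 0.034 on the log2 scale (edgeR adjusted p = 3.86e-05). The sh68 value of 0.052 ± 0.034 did not pass (adjusted p = 0.212), but did with library size alone in place of TMM scaling (adjusted p = 0.0443). Its sh72 level was above its sh68 level by 0.15 ± 0.034 (adjusted p = 0.000841). On the mean of both shRNAs the log2 fold change was 0.12 ± 0.030 (adjusted p = 0.00122), and the call ended when the LSD1 shRNA libraries were taken as 1 group (adjusted p = 0.122).

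RFXAP, the RFX-associated protein of the same complex (chromosome 13, 36819222 to 36829104), rose most on the mean of both shRNAs. It was at 7.98, 8.17 and 8.51 CPM in shSCR, at 10.4, 11.2 and 10.6 CPM with sh68 and at 10.5, 10.3 and 11.4 CPM with sh72. All 6 knockdown libraries lay above all controls, although RFXAP had the fewest reads of the 10 genes, from 236 to 394 a library. The rise was 0.39 ± 0.081 with sh68 (edgeR adjusted p = 0.000269) and 0.38 ± 0.081 with sh72 (adjusted p = 0.000374). The difference between the shRNAs was -0.0049, with a 95% interval from -0.17 to 0.16. On the mean, the rise of 0.39 ± 0.071 (adjusted p = 7.88e-05) was larger in size than the change of 72.7% of all genes.

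RFXANK, the ankyrin-repeat subunit (chromosome 19, 19192258 to 19201866), went the other way with sh72. Its levels were 62.7, 60.2 and 57.7 CPM in shSCR, 58.7, 59.0 and 58.0 CPM with sh68 and 56.3, 53.4 and 49.0 CPM with sh72. The sh72 libraries lay below the others, and the sh68 libraries lay within the control range. RFXANK fell by 0.19 ± 0.051 with sh72 (edgeR adjusted p = 0.00361), which no longer passed without shSCR replicate 1 (adjusted p = 0.0543) or sh72 replicate 3 (-0.12, adjusted p = 0.064). The sh68 value was -0.041 ± 0.050 (adjusted p = 0.514), and the difference between the shRNAs was -0.15 ± 0.051 (adjusted p = 0.017), lost without sh68 replicate 2 or without sh72 replicate 2 or 3 (adjusted p = 0.0514, 0.0522 and 0.167). The fall on the mean, -0.11 ± 0.044 (adjusted p = 0.0327), was lost under 5 of the 9 other settings of the fit, with an adjusted p up to 0.262, and without any of 7 of the 9 libraries in turn. RFXANK exons overlap BORCS8 (14.5% of the exon bases) and NR2C2AP (8.83%) on the opposite strand. With sh72 those neighbours rose, BORCS8 by 0.33 ± 0.086 (adjusted p = 0.00251) and NR2C2AP by 0.25 ± 0.056 (adjusted p = 0.000711), while RFXANK fell.

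CD74, the invariant chain (chromosome 5, 150401639 to 150412910, minus strand), was slightly lower with each shRNA. It was at 954, 992 and 955 CPM in shSCR, at 832, 877 and 843 CPM with sh68 and at 936, 873 and 849 CPM with sh72. No knockdown library reached the lowest control. CD74 fell by 0.18 ± 0.039 with sh68 (edgeR adjusted p = 0.000312) and by 0.13 ± 0.039 with sh72 (adjusted p = 0.00933). The difference between the shRNAs, 0.059 with a 95% interval from -0.022 to 0.14, did not pass, so the opposite directions of CIITA were not seen in CD74. The sh72 call was lost without shSCR replicate 2 (-0.096, adjusted p = 0.0841), sh72 replicate 2 (-0.098, adjusted p = 0.0915) or sh72 replicate 3 (-0.078, adjusted p = 0.147). The fall on the mean of both, -0.16 ± 0.034 (adjusted p = 0.000438), was a loss of 10.2% of the RNA.

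NLRC5, the class I transactivator (chromosome 16, 56989557 to 57083520), was low in all groups and lowest with sh72. It was at 20.3, 20.4 and 18.7 CPM in shSCR, at 20.8, 20.8 and 22.6 CPM with sh68 and at 14.8, 15.2 and 14.7 CPM with sh72. The sh72 libraries lay below all others and varied little, with an SD of 0.303 CPM. NLRC5 fell by 0.41 ± 0.065 with sh72 (edgeR adjusted p = 1.24e-05). With sh68 the value was 0.12 ± 0.062 (adjusted p = 0.121), although no sh68 library overlapped a control. For sh72 minus sh68 the value was -0.52 ± 0.064 (adjusted p = 2.09e-07), of the same sign as that of CIITA. The mean of both, -0.15 ± 0.055 (adjusted p = 0.0284), was lost under 5 of the 9 other settings of the fit, with an adjusted p up to 0.607, and without any of 6 of the 9 libraries in turn. The lower summed B-cell markers of the sh72 libraries move with this result too, and their part in it was not tested.

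B2M, the light chain of all class I molecules (chromosome 15, 44711517 to 44718145), has 1 RefSeq promoter window that holds letters of several class I boxes. Its 250 bases before the start, chr15:44711267-44711516 on the plus strand (RefSeq, GRCh38.p14), are printed by the same rule as for RFX5. Here CCAAT and TGACG met that rule. Capitals mark TGACG (X2 core) and ATTGG, which is the Y-box CCAAT read on the other strand.
B2M promoter: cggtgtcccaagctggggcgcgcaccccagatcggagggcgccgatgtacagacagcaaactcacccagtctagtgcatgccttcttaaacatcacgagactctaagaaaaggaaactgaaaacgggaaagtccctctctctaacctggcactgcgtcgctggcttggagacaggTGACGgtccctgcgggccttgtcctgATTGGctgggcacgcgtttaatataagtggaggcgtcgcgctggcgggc

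B2M RNA did not change detectably. It was at 23.9, 21.8 and 23.1 CPM in shSCR, at 23.8, 23.4 and 24.6 CPM with sh68 and at 21.5, 26.0 and 24.6 CPM with sh72, so that all groups overlapped. The log2 fold change was 0.061 ± 0.066 with sh68 (edgeR adjusted p = 0.452) and 0.066 ± 0.066 with sh72 (adjusted p = 0.424). On the mean of both the 95% interval ran from -0.055 to 0.18. The difference between the shRNAs was 0.0056, with an interval from -0.13 to 0.14, beside the fall of NLRC5 with sh72. B2M had 630 to 865 reads a library, and how reads with several placements or alternate sequences of the genome were counted is not stated. Whether its count holds all B2M reads was not tested. Few reads were counted for the MHC chains themselves, and why was not tested. In all, 14 of 18 listed genes of class I and class II chains were in the table, and the highest count of any of them was 43 reads, for HLA-DOB.

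ERAP1, an aminopeptidase that trims class I peptides in the endoplasmic reticulum, and ERAP2, its paralog, lie side by side on chromosome 5 on opposite strands. The RefSeq interval of ERAP1 (96760813 to 96935854) spans that of ERAP2 (96875984 to 96919716). ERAP1 was at 140.5, 138 and 140.0 CPM in shSCR, at 149.8, 155 and 155 CPM with sh68 and at 163, 158 and 165 CPM with sh72. Its groups did not overlap, in the order shSCR, sh68, sh72. ERAP1 rose by 0.14 ± 0.037 with sh68 (edgeR adjusted p = 0.00287) and by 0.21 ± 0.037 with sh72 (adjusted p = 3.14e-05), and the difference of 0.077 ± 0.036 did not pass (adjusted p = 0.0748) except with library size alone, with only those groups fitted, or without sh72 replicate 2 (adjusted p = 0.0354, 0.0491 and 0.0371).

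ERAP2 was at 42.0, 40.9 and 44.1 CPM in shSCR, at 38.1, 35.5 and 37.9 CPM with sh68 and at 42.4, 45.6 and 47.2 CPM with sh72. The sh68 libraries were the low ones, and the sh72 libraries overlapped the controls. ERAP2 fell by 0.19 ± 0.053 with sh68 (edgeR adjusted p = 0.0043), and its sh72 value of 0.090 ± 0.053 passed only without sh72 replicate 1 (0.13, adjusted p = 0.0467, against 0.163 with all libraries). Between the shRNAs ERAP2 differed by 0.28 ± 0.053 (adjusted p = 8.84e-05). The paralogs thus changed in opposite directions with sh68. CAST, which shares 3.76% of the ERAP1 exon bases on the opposite strand, fell by 0.37 ± 0.041 with sh68 (adjusted p = 4.47e-08), against the direction of ERAP1.

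CALR, the lectin chaperone calreticulin (chromosome 19, 12938609 to 12944489), was high in every library. It was at 894, 848 and 777 CPM in shSCR, at 901, 922 and 931 CPM with sh68 and at 1206, 1005 and 1016 CPM with sh72. The 3 groups did not overlap, and sh72 replicate 1 was the highest library. CALR rose by 0.36 ± 0.055 with sh72 (edgeR adjusted p = 7.10e-06), a gain of 28.1%. The sh68 rise of 0.13 ± 0.055 was close to the threshold (adjusted p = 0.0482) and ended with DESeq2 (adjusted p = 0.207), with a robust fit (adjusted p = 0.101) and without any of 5 libraries in turn (adjusted p up to 0.248). Between the shRNAs CALR differed by 0.23 ± 0.054 (adjusted p = 0.00098). On the mean the rise was 0.24 ± 0.048 (adjusted p = 0.000153), which was lost with the LSD1 shRNA libraries as 1 group (adjusted p = 0.0821).

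Ratios of pairs of these genes within a library do not depend on the scaling between libraries, and 5 pairs were compared. RFX5 to RFXAP read counts stood at log2 ratios of 4.50, 4.45 and 4.40 in shSCR, 4.17, 4.04 and 4.14 with sh68 and 4.31, 4.31 and 4.17 with sh72. RFXANK to RFXAP stood at 2.97, 2.88 and 2.76 in shSCR, 2.5, 2.39 and 2.44 with sh68 and 2.42, 2.38 and 2.10 with sh72. Both ratios were lower in all 6 LSD1 shRNA libraries than in any control, so that RFXAP RNA gained on its partners. The differences of -0.26 and -0.50 (log2) each had p = 0.0119 in a two-sided exact permutation test, the smallest that 6 against 3 libraries allow, and 0.0298 after adjustment over the 5 pairs. Expressed as plain ratios, there were 7.31 RFXANK reads for each RFXAP read in shSCR, 5.44 with sh68 and 4.92 with sh72.

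The ERAP1 to ERAP2 ratio was 3.30 in shSCR, 4.13 with sh68 and 3.59 with sh72. It was higher in all 6 LSD1 shRNA libraries than in the controls, by 0.22 on the log2 scale, and did not pass after adjustment over the 5 pairs (exact permutation p = 0.0357, adjusted 0.0595). The CD74 to CIITA ratio was 19.5 in shSCR, 14.3 with sh68 and 28.3 with sh72. Those shifts of -0.44 with sh68 and 0.54 with sh72 (log2) left a mean difference of 0.048 (exact permutation p = 0.893), and no library of either arm lay within the control range. The B2M to NLRC5 ratio was 1.16, 1.12 and 1.61, higher in all sh72 libraries, with a mean difference of 0.21 (exact permutation p = 0.357, adjusted 0.446). For a single shRNA, an exact permutation test of 3 against 3 libraries cannot go below p = 0.1.

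**Figure D4:**
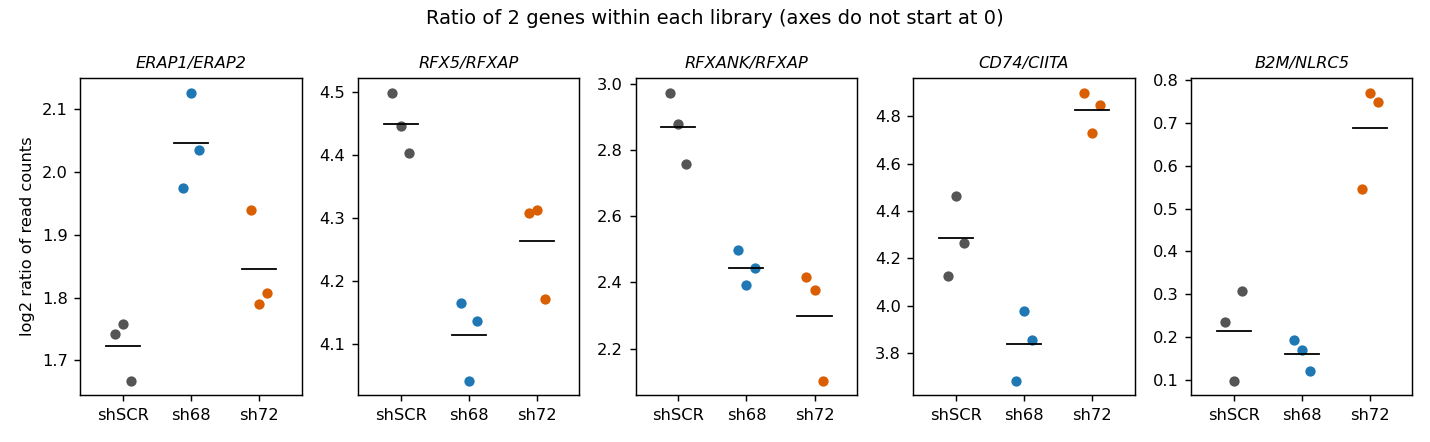
Log2 ratio of read counts of gene pairs within each of the 9 libraries by group, with the group mean as a line; the axes do not start at 0. The RFX5/RFXAP and RFXANK/RFXAP points of both LSD1 shRNA groups lie below all control points, and the CD74/CIITA points of sh68 and sh72 lie on opposite sides of the controls.

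The other genes of the pathway were counted in lists written by role, also with earlier results of these data known. The partners of the RFX complex and CIITA, which are NF-Y, CREB-family factors and coactivators, numbered 14 tested genes. On the mean 2 rose and 5 fell, with a median of -0.036, where 24.9% and 27.5% of all genes were called higher and lower. With sh72 3 rose and 8 fell, where 24.7% and 26.3% of all genes were called, with a median of -0.10 beside -0.011 over all genes. With sh68 3 rose and 4 fell, near the 27.4% and 28.1% of all genes, with a median of 0.014. Comparing sh72 with sh68, 2 were higher and 8 lower (median -0.14), where 27.2% and 29.0% of all genes were. NFYA, the regulatory subunit of the CCAAT-binding factor, was at 139 ± 5.24 CPM (SD, n = 3) in shSCR, 121 ± 3.79 with sh68 and 97.2 ± 4.79 with sh72, and fell by 0.35 ± 0.037 on the mean (edgeR adjusted p = 2.38e-08). Its partner NFYC rose by 0.18 ± 0.041 (adjusted p = 0.000581), and NFYB had 0.077 ± 0.055 (adjusted p = 0.248). On the mean, NFYA and NFYC thus moved in different directions, though the NFYC rise did not pass with sh68 (0.10 ± 0.047, edgeR adjusted p = 0.0677). Among RFX subunits, the fall of RFXANK beside the rises of RFX5 and RFXAP was lost under several settings, as given above. CREB1, which binds the X2 box, fell by 0.13 ± 0.036 (adjusted p = 0.00468), as did ZXDC, a zinc-finger partner of CIITA, by 0.21 ± 0.041, and the acetyltransferase EP300 by 0.098 ± 0.031 (adjusted p = 0.000184 and 0.0105).

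Upstream inputs to CIITA and NLRC5, which are interferon-gamma signalling and B-cell regulators, numbered 15 tested genes. With sh68 6 rose and 4 fell, where 27.4% and 28.1% of all genes were called, with a median log2 fold change of 0.092. With sh72 0 rose and 12 fell, where 24.7% and 26.3% of all genes were called, with a median of -0.36. Between the shRNAs 11 of the 15 were lower and 2 higher in sh72 than in sh68, where 29.0% and 27.2% of all genes were. On the mean 3 rose and 9 fell, where 24.9% and 27.5% of all genes were called, with a median of -0.17. The summed B-cell markers, 3133 to 3330 CPM with sh72 against 4757 to 4944 CPM in shSCR, move with this list of B-cell regulators, PAX5 is in both lists, and their part in its counts was not tested. IRF1, an interferon-induced factor that acts at the CIITA and NLRC5 promoters, rose by 0.37 ± 0.078 with sh68 and fell by 0.44 ± 0.083 with sh72 (edgeR adjusted p = 0.000321 and 0.000115), the same signs as CIITA. IRF8 fell by 0.46 ± 0.048 with sh72 (adjusted p = 3.36e-08) and had 0.092 ± 0.048 with sh68 (adjusted p = 0.107). SPI1, the ETS factor PU.1 that partners with IRF8, fell by 0.60 ± 0.053 on the mean (adjusted p = 1.2e-09), and the receptor chain IFNGR1 by 0.17 and the repressor BCL6 by 0.15 (adjusted p = 0.00138 and 0.00035).

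Genes of class II loading and turnover outside the MHC numbered 11 tested of 15 listed. On the mean 3 rose and 3 fell, with a median of -0.12, near the shares of all genes (24.9% higher and 27.5% lower). With sh68 2 rose and 5 fell (median -0.069), where 27.4% and 28.1% of all genes were called. With sh72 3 rose and 4 fell (median 0.023), where 24.7% and 26.3% were called. Comparing sh72 with sh68, 5 were higher and 3 lower (median 0.062), where 27.2% and 29.0% of all genes were. CD63, a tetraspanin of class II compartments, fell by 0.57 ± 0.047 (edgeR adjusted p = 4.8e-10), and AP1M1, a sorting adaptor subunit, rose by 0.28 ± 0.044 (adjusted p = 8.01e-06). CTSS, the protease that removes invariant chain, fell by 0.22 ± 0.040 with sh72 (adjusted p = 7.11e-05). IFI30, the lysosomal thiol reductase, fell by 0.16 ± 0.050 with sh68 and rose by 0.45 ± 0.049 with sh72 (adjusted p = 0.00943 and 6.05e-08), the reverse of CIITA.

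Class I peptide supply and loading numbered 18 tested genes of 21 listed. On the mean 7 rose and 5 fell, with a median of -0.0067, where 24.9% of all genes were called higher and 27.5% lower. With sh68 5 rose and 8 fell, with a median of -0.17, where 27.4% and 28.1% were called. With sh72 8 rose and 5 fell, with a median of 0.095, where 24.7% and 26.3% were called. Comparing sh72 with sh68, 10 were higher and 3 lower (median 0.22), where 27.2% and 29.0% of all genes were. Among genes of interferon-inducible proteasome parts, 3 named by the rule fell: PSME1 by 0.51 ± 0.035, PSME2 by 0.36 ± 0.039 and PSMB10 by 0.34 ± 0.062 on the mean (edgeR adjusted p = 1.7e-11, 4.06e-08 and 5.68e-05). TAP2, a subunit of the peptide transporter, fell by 0.34 ± 0.072 (adjusted p = 0.0004). It lies in the MHC region, had 320 to 453 reads a library, and its partner TAP1 and the neighbouring PSMB8, both named after their values were seen, had at most 1 and 2 reads. Whether the TAP2 count holds all its reads was not tested. CANX, the membrane-bound relative of CALR, rose by 0.19 ± 0.035 (adjusted p = 5.91e-05), the same direction as CALR. PDIA3, which works with CALR in the loading complex, fell by 0.21 ± 0.040 with sh68 and rose by 0.18 ± 0.040 with sh72 (adjusted p = 7.95e-05 and 0.000672).

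Of the chromosome 6 chains, 4 were tested, with a median of -0.43, and 2 fell on the mean, among them HLA-DOB, a chain of the class II chaperone HLA-DO, at 1.06 ± 0.233 CPM (SD, n = 3) in shSCR, 0.468 ± 0.109 with sh68 and 0.403 ± 0.0304 with sh72. With sh68 1 fell, and with sh72 1 rose and 1 fell, counts too small to set against the shares of all genes. Other heavy chains that pair with B2M gave 6 tested genes, of which 3 rose and 2 fell on the mean, with a median of 0.48, where 24.9% and 27.5% of all genes were called. With sh68 3 rose and 2 fell, where 27.4% and 28.1% were called, and with sh72 2 rose and 1 fell, where 24.7% and 26.3% were called. CD1C, which presents lipids, was at 3.85 ± 0.382 CPM in shSCR, 9.55 ± 1.03 with sh68 and 10.2 ± 0.496 with sh72, a rise of 1.36 ± 0.095 on the mean (edgeR adjusted p = 2.37e-11). CD1A, its relative, rose by 1.15 ± 0.14 (adjusted p = 2.87e-07). These CD1 fold changes were larger than that of any of the 10 genes, and B2M RNA itself did not pass.

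**Figure D5:**
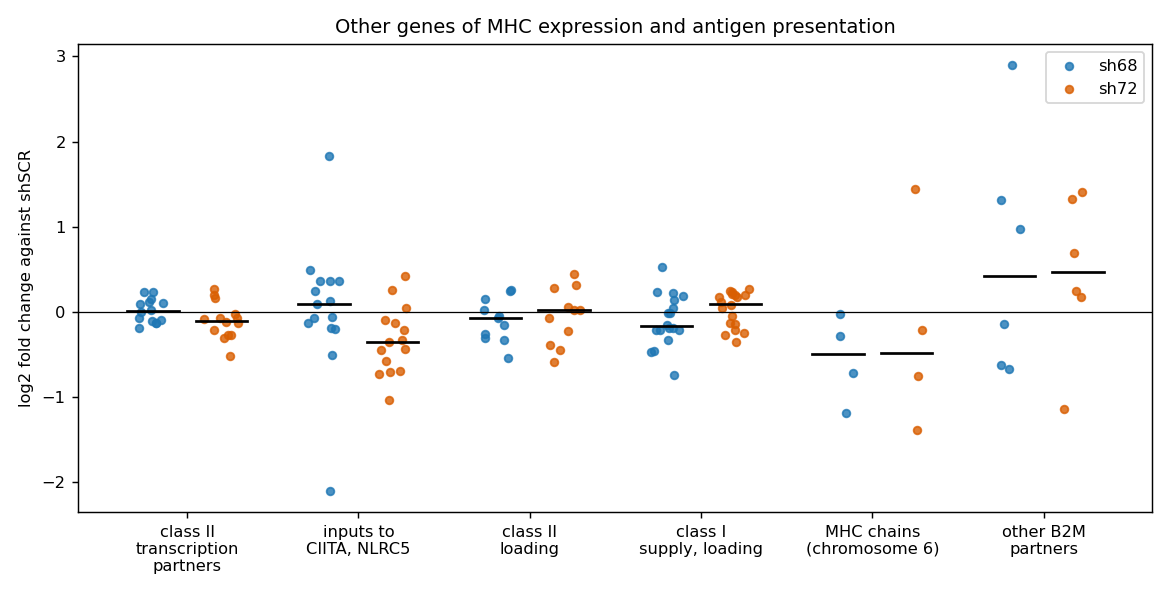
Log2 fold change against shSCR of each tested gene of 6 pathway lists with sh68 (blue) and sh72 (orange); lines are medians. In the list of inputs to CIITA and NLRC5 the median is 0.092 with sh68 and -0.36 with sh72. It is 0.014 and -0.10 for class II partners, and -0.17 and 0.095 for class I supply and loading. The lists of chromosome 6 chains and of other B2M partners hold few genes.

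Over the 9 libraries, the genes whose log2 CPM was most like that of CIITA among 10909 compared were EVC (Pearson r = 0.992), SAP30L (0.988) and SPPL2B (0.987). For NLRC5 they were LCK (0.991), MIER3 (0.987) and LAMP3 (0.987). LAMP3, also counted among the dendritic-cell markers, was at 112 CPM in shSCR, 151 with sh68 and 43.3 with sh72, the order seen for NLRC5. For CD74 they were LIN37 (0.988), DCAF11 (0.98) and POLR3B (0.972), and for B2M EPHX1 (0.905), KMT2A (0.874) and NOXA1 (0.824). The 9 libraries share their 3 groups in all such correlations. In number, 642 genes had an r above 0.9 with CIITA, 732 with NLRC5 and 204 with CD74, against 1 with B2M.

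The letters of the promoter boxes were counted on both strands in RefSeq windows from 250 bases before to 50 after a start. CCAAT occurs in 34.6% of 35116 such windows, TGACG in 24.6%, AGCAAC in 12.8% and the interferon-response core GAAANNGAA in 8.11%. CD74 held CCAAT at -53 and GAAANNGAA at -172 from the start, and B2M held TGACG at -75, CCAAT at -49 and 2 overlapping GAAANNGAA matches at -144 and -138. CALR held 4 CCAAT matches and none of the other 3 motifs, RFXAP held TGACG at -23, and ERAP2 held GAAANNGAA at -30. ERAP1 held CCAAT at -154 and GAAANNGAA at 3, and RFXANK held AGCAAC at 5. The RFX5 windows that were not printed also held matches. A STAT site core, TTCNNNGAA, was searched as well, and it occurred in 7.66% of all windows and in no window of these genes. These matches are descriptions of the windows and not binding sites measured in these cells. Windows of 8 of the 10 genes were searched, not those of CIITA and NLRC5.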

How the data were processed

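Polyadenylated RNA of 9 OCI-Ly1 libraries, 3 each of shSCR, sh68 and sh72, was measured by RNA-seq. The authors deposited raw, unnormalized read counts by gene symbol. The submitters' processing notes list CASAVA 1.8.2, STAR 2.5.2 and featureCounts 1.5.2, with hg38 as the genome. For the strand setting, the annotation and other parameters, the value is not given in the sources used here, so reads in overlapping exons of 2 genes cannot be assigned with certainty.

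Counts were fitted with edgeR 4.0.16 (limma 3.58.1, R 4.3.3) after filterByExpr and TMM scaling, in 1 quasi-likelihood model with a mean per group (common BCV, the biological coefficient of variation, 0.0394). The code was tested on simulated data. P-values were adjusted over all tested genes by the method of Benjamini and Hochberg. The SE is the absolute log2 fold change over the square root of F. Ratios within a library used counts plus 0.5 reads and two-sided exact permutation tests. Lengths and exon overlaps came from GENCODE 29, and positions and promoters from RefSeq on GRCh38.p14.

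Residuals of same-numbered replicates in different groups had Pearson r from -0.036 to 0.072, so the numbers were not taken to pair them. Replicates differed by more than counting noise (chi-square per degree of freedom at least 2.57). The genes followed, the lists and the motifs were chosen with earlier results of these data known. Beyond the 10 genes and KDM1A, up to 4 genes per list were named, taking the strongest mean changes of genes that were called there and by each shRNA with the same sign, besides NFYA, NFYB, NFYC, CREB1, IRF1, IRF8, SPI1, PDIA3, CANX, IFI30 and CTSS. Some genes that the rule took are not reported here. The likeness list took the 3 highest r among named genes whose average log2 CPM was 1 or more. The alternatives tried were DESeq2 1.42.0 or limma-voom as the test, RLE factors or library size alone as the scaling, and no filter or a minimum of 1 CPM in 3 libraries. Others were a robust fit, a replicate block, a fit of just the groups compared and leaving out single libraries. For ratios no reads or 5 reads were added, and for levels library size alone or the longest transcript were used.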

Additional observations from a re-analysis of the deposited data

Results flagged for a closer look

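CIITA met the test of a difference between groups under the same contrast: with sh68 it rose by 0.26 ± 0.063 on the log2 scale and with sh72 it fell by 0.67 ± 0.067, and the difference of -0.93 ± 0.065 passed by edgeR's quasi-likelihood test (adjusted p = 2.12e-11). All 3 libraries of each shRNA lay on opposite sides of all 3 controls, and KDM1A was at 20.2% of control with sh68 and 17.2% with sh72.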

How the results depend on the processing

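Over 9 other settings of the fit and 9 left-out libraries, 673 of 720 fold changes of single genes kept their side of the threshold. Of the others, 42 lost their call and 5 gained one, and no called change reversed its direction. A value that passed in neither fit could change sign and still count among the 673. RFXAP did so between the shRNAs, at -0.0049 in the main fit and 0.0044 with RLE scaling. Genes called lower on the mean of both shRNAs, 4 of the 10, were 2 with library size alone, 2 with at least 1 CPM in 3 libraries, 2 with DESeq2 and 1 with the LSD1 shRNA libraries as 1 group. That last setting also left 2 called higher, and 3581 genes called over the whole table against 8226. Leaving out single libraries gave 1 to 4 called lower on the mean, with 1 left without shSCR replicate 1, and 2 to 4 with sh72, with 2 left without sh72 replicate 3. The difference in the RFX5/RFXAP ratio ran from -0.28 to -0.23 and that in RFXANK/RFXAP from -0.55 to -0.44 over left-out libraries, all lower. The adjusted p of both ratios (exact permutation test) rose to 0.0893 when 1 shSCR library was left out and to 0.0595 when 1 sh68 library or sh72 replicate 3 was. With fewer libraries there are fewer regroupings, so the smallest p that the test can give is larger. Both calls were kept without sh72 replicate 1 or 2, which leaves as many libraries as leaving out sh72 replicate 3. How much of the rise in adjusted p comes from the smaller number of regroupings was not tested. With the replicate block, all 10 genes had the same calls in every comparison, and CIITA differed between the shRNAs by -0.93. With the longest transcript 9 of the 10 levels in shSCR moved by more than 1 SD, CD74 to 560 RPKM and B2M to 9.54 RPKM. The lowest count of the 10 genes, 236 reads for RFXAP, limits its precision most, and its 95% interval on the mean of both shRNAs ran from 0.24 to 0.53 (log2).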
